A study of Mus musculus with 4 samples.

Results

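The genes that write, copy and remove cytosine methylation were examined in GS cells, cultured mouse spermatogonia. The 10 genes were Dnmt1, Dnmt3a, Dnmt3b, Dnmt3l, Uhrf1, Hells, Tet1, Tet2, Tet3 and Tdg. Each was taken by its symbol from the 32285 genes of the count table, and all 10 were present. The cultures were established from wild-type testes of mice aged 10 days, and 2 libraries came from C57BL/6 (B6) and 2 from strain 129. No treatment is named for either strain, the titles of the B6 libraries also carry "F0", which the labels do not explain. Whether the replicates of a strain are different cultures or mice is not given. P-values therefore measure only the spread between these libraries, which may be technical.

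Mammalian DNA methylation sits mainly on CpG sites and is handled by separate enzymes for copying, for new methylation and for removal. DNMT1 copies methylation onto new DNA strands after replication, guided by UHRF1, which binds hemimethylated CpG, while HELLS is a chromatin remodeller that opens nucleosomal DNA to the methylation machinery. DNMT3A and DNMT3B add new methylation, and DNMT3L is a catalytically inactive partner of both. The TET proteins oxidise 5-methylcytosine, and TDG excises some of the oxidised bases. In the male germ line the pattern is erased in fetal germ cells and set again before birth, so that spermatogonia already carry much of the sperm pattern.

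The libraries held 20375086 to 25374801 counts. Levels are in CPM, the read count scaled by library size with TMM factors. Each log2 fold change sets 129 against B6, so a negative value is lower in 129, and comes from edgeR's quasi-likelihood test with its standard error (SE). Of the 16005 genes tested, 457 were called at an adjusted p under 0.05. The number was 0 without B6 replicate 1, 1 without B6 replicate 2, 13 without 129 replicate 1 and 827 without 129 replicate 2, with 3251, 4093, 2203 and 3850 at an unadjusted p under 0.05. By PCA, the first principal component, with 72.8% of the variance, separated the strains. Germ cell genes were abundant in all 4 libraries, with Dazl at 635 to 1052 CPM and Ddx4 at 276 to 517 CPM.

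Octamers of one class, though not one sequence, lay before start sites of the 3 copying genes. RefSeq (GRCm38.p6) gave 17 start sites for the 10 genes, and the 250 bases before each were searched on both strands for E2F-type octamers, the letters TTTCCCGC, TTTGGCGC, TTTCGCGC or TTTGCCGC. E2F factors control many genes of DNA replication. A match lay before 1 of the 3 start sites of Dnmt1, 1 of the 2 of Uhrf1 and the 1 of Hells, and before none of the other 7 genes, while 1.86% of all 32851 windows held one. The matches are shown in capitals within 30 bases of the gene's own strand, 5′ to 3′.
Dnmt1: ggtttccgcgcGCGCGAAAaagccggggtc
Uhrf1: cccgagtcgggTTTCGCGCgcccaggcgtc
Hells: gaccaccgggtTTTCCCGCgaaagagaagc
The Dnmt1 stretch is chr9:20952824-20952853 on the minus strand, where the match TTTCGCGC lies on the opposite strand, 212 to 219 bases before the start. The Uhrf1 stretch is chr17:56304117-56304146 on the plus strand, with its match TTTCGCGC 178 to 185 bases before the start. The Hells stretch is chr19:38930917-38930946 on the plus strand, with its match TTTCCCGC 55 to 62 bases before the start. All 30 bases of the Dnmt1 and Hells stretches lie in an exon of the same gene in GENCODE, and none of the Uhrf1 stretch does. A match describes letters in a window, not a bound site, and genes with several start sites had more windows to hold one. Each octamer searched also holds a CpG site. The windows with a match held 26 CpG sites for Dnmt1, 30 for Uhrf1 and 28 for Hells, where the median over all windows was 6. The share of matches among windows as dense in CpG was not computed. Of the shorter motifs searched, CCAAT lay in 33.85% of all windows and in windows of Dnmt1, Uhrf1, Tet3 and Tdg, and the GC box GGGCGG lay in 32.74% of windows and in those of 9 of the 10 genes, all but Tdg. The E-box CACGTG lay in 6.02% of all windows and in 1 window each of Dnmt3a, Dnmt3l and Tdg.

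The copying genes were the most abundant of the set and the other genes spread far below them. The value compared between genes is CPM per kb of exon, averaged over the 4 libraries. Uhrf1 stood at 93.0, Dnmt1 at 88.2 and Hells at 69.3, and the ranges of these 3 over libraries overlapped. Dnmt3b followed at 17.7 and Dnmt3a at 10.5, with ranges of 12.8 to 25.1 and 9.28 to 11.6 that did not overlap. Tet3, at 8.42 with a range of 5.81 to 12.7, could not be separated from Dnmt3a.
Tdg at 2.66 and Dnmt3l at 1.80 formed the next, overlapping pair, and Tet1 at 0.420 and Tet2 at 0.401 had the lowest means and overlapped as well. The range of Dnmt3l, 0.578 to 2.73, also overlapped those of Tet1 and Tet2, and in B6 replicate 1 it was the lowest of the 10 genes. Tet3 held 88.8% to 94.4% of the summed level per kb of the TET genes in every library. Exon length counts the union of all annotated exons, and per kb of coding sequence Hells came first at 203, followed by Uhrf1 at 169 and Dnmt1 at 134. Dnmt3a was then above Dnmt3b, at 61.8 against 35.05, so the order of that pair depends on the length used.

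**Figure D1:**
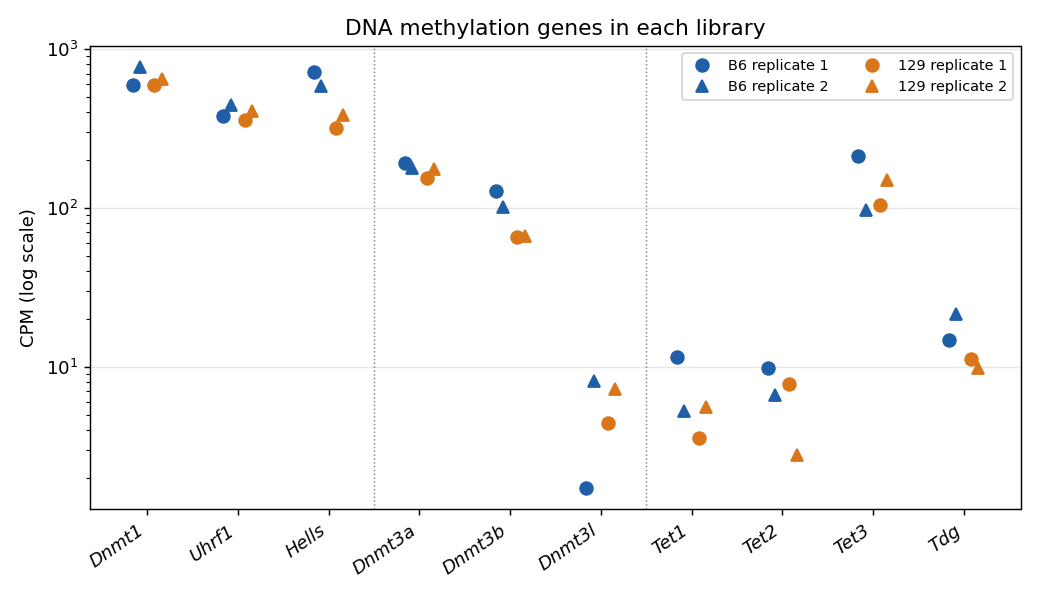
CPM on a log axis for each gene in each library, with circles for replicate 1 and triangles for replicate 2, blue for B6 and orange for 129; dotted lines separate the copying genes, the de novo genes and the removal genes. Both 129 libraries lie below both B6 libraries for Hells, Dnmt3b, Dnmt3a and Tdg, while Dnmt1, Uhrf1, Dnmt3l and the TET genes overlap between strains.

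None of the 10 genes passed the edgeR test between strains, where 2.86% of all genes tested were called, 1.02% lower and 1.84% higher in 129. At an unadjusted p under 0.05 there were 2, Hells and Dnmt3b, where 28.1% of all genes were. DESeq2 called the same pair lower in 129, against 15.3% of all genes in either direction, 5.7% lower and 9.63% higher, and limma-voom called 0. By point estimate 9 of the 10 genes were lower in 129 and 1, Dnmt3l, was higher, and these signs held with DESeq2 size factors, upper-quartile factors and library totals. The median was -0.47 over the 10 genes and 0.015 over all genes tested. The libraries of the strains did not overlap for 4 of the 10 genes, each lower in 129, where 60.1% of all genes were apart, 29.2% lower and 31% higher. Separation of the libraries was thus common over all genes. In these bulk samples, fewer cells of a type and less RNA per cell cannot be told apart.

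Among the copying genes, Hells had the largest estimated difference, which passed the DESeq2 test and narrowly missed the edgeR threshold, while the strains overlapped for Dnmt1 and Uhrf1. Hells, on chr19:38930915-38971051, was at 711 and 584 CPM in the B6 libraries and at 316 and 386 CPM in the 129 libraries. Both 129 libraries were well below both B6 libraries. The B6 mean was 648 ± 89.9 CPM and the 129 mean 351 ± 49.4 CPM (SD, n = 2 each), 1.85-fold lower, with a log2 fold change of -0.89 (SE 0.20, 95% interval -1.35 to -0.42). Its edgeR adjusted p of 0.0558 missed the threshold, and its DESeq2 adjusted p was 0.00986. Over the alternatives the adjusted p ranged from 0.00986 to 0.291, highest without 129 replicate 1 and lowest in DESeq2.

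Dnmt1, the maintenance methyltransferase gene on chr9:20907209-20959888, was at 588 and 769 CPM in B6 and 593 and 651 CPM in 129. The 129 libraries fell between those of B6. The log2 fold change was -0.13 (SE 0.19, 95% interval -0.59 to 0.33, edgeR adjusted p = 0.705), and it was 0.036 without B6 replicate 2. Uhrf1, on chr17:56303321-56323486, was at 379 and 442 CPM in B6 and 358 and 405 CPM in 129, again overlapping. Its log2 fold change was -0.11 (SE 0.18, 95% interval -0.53 to 0.32, edgeR adjusted p = 0.734). The intervals of Dnmt1 and Uhrf1 did not reach down to the estimate for Hells, but the differences between these genes were not tested.

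The ratio of Hells to Dnmt1 within a library, both in CPM per kb of exon, was 1.24 and 0.778 in B6 and 0.546 and 0.606 in 129. The strains were apart in this ratio, but with 2 libraries each the smallest two-sided p of an exact permutation test is 0.333. The ratio of Uhrf1 to Dnmt1 was 1.12 and 0.995 in B6 and 1.05 and 1.08 in 129, so these values overlapped.

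Among the de novo genes, Dnmt3b had the second difference that passed the DESeq2 test and not the edgeR test, and Dnmt3a was close between strains. Dnmt3b, on chr2:153649450-153687730, was at 128 and 102 CPM in B6 and at 65.6 and 66.3 CPM in 129. The 129 libraries were nearly equal and below both B6 libraries. The means were 115 ± 18.6 and 65.9 ± 0.519 CPM (SD, n = 2 each), 1.74-fold lower in 129, with a log2 fold change of -0.80 (SE 0.21, 95% interval -1.30 to -0.31). The edgeR adjusted p was 0.0709, the DESeq2 adjusted p 0.0238, and the range over the alternatives 0.0238 to 0.349. Of the 76-base stretches of Dnmt3b transcripts, 6.09% also occur in Dnmt3c, its neighbouring rodent copy that methylates young transposons in male germ cells. Dnmt3c itself had 0 to 9 counts in a library and did not pass the filter.

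Dnmt3a, on chr12:3806007-3914443, was at 193 and 178 CPM in B6 and 154 and 175 CPM in 129. The strains did not overlap, but the nearest libraries, B6 replicate 2 and 129 replicate 2, were almost equal. The log2 fold change was -0.17 (SE 0.18, 95% interval -0.60 to 0.26, edgeR adjusted p = 0.584). The ratio of Dnmt3b to Dnmt3a, per kb of exon, was 2.17 and 1.87 in B6 and 1.38 and 1.23 in 129, apart between strains.
Dnmt3l, the cofactor gene on chr10:78041947-78063622, had the largest gap between the B6 replicates of the 10 genes. It was at 1.73 and 8.17 CPM in B6, from 43 and 165 counts, and at 4.44 and 7.21 CPM in 129. The 129 libraries lay between those of B6. The exact 95% counting intervals of the B6 libraries were 1.25 to 2.33 and 6.97 to 9.51 CPM, so their gap exceeded counting error. The log2 fold change was 0.27 (SE 0.72, 95% interval -1.45 to 1.99, edgeR adjusted p = 0.834), and it was -0.49 without B6 replicate 1, -0.12 without 129 replicate 2 and 1.71 without B6 replicate 2.

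**Figure D2:**
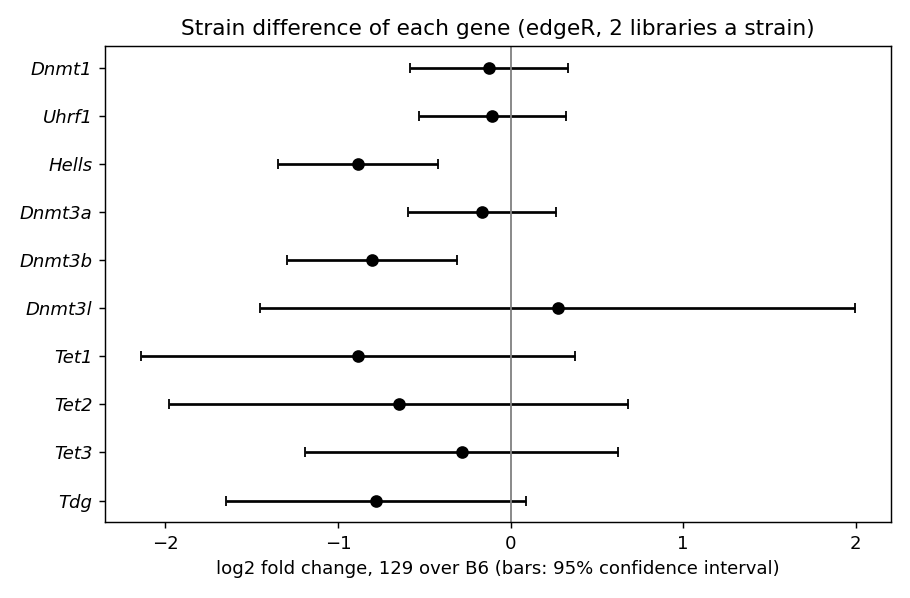
Log2 fold change of 129 over B6 for each gene (points), with 95% confidence intervals from the edgeR fit that are not adjusted for the number of genes. The intervals of Hells (-1.35 to -0.42) and Dnmt3b (-1.30 to -0.31) lie below 0 and the other 8 cross it.

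Of the TET genes, Tet3 was the one at a high level, and the strains overlapped for all 3. Tet3, on chr6:83362373-83459084, was at 212 and 97.0 CPM in B6 and 105 and 149 CPM in 129. B6 replicate 1 was the highest library and B6 replicate 2 the lowest. The log2 fold change was -0.28 (SE 0.38, 95% interval -1.19 to 0.62, edgeR adjusted p = 0.666), and without B6 replicate 1 it turned to 0.38.
Tet1, on chr10:62804570-62908996, was at 11.5 and 5.30 CPM in B6 and 3.57 and 5.595 CPM in 129. Only B6 replicate 1 stood above the others. The log2 fold change was -0.88 (SE 0.53, 95% interval -2.14 to 0.37, edgeR adjusted p = 0.322), and leaving out 1 library gave -0.21 without B6 replicate 1 to -1.37 without B6 replicate 2. Tet2, on chr3:133463679-133545139, was at 9.84 and 6.63 CPM in B6 and 7.78 and 2.80 CPM in 129, with 129 replicate 2 alone at a low level from 59 counts. Its log2 fold change was -0.65 (SE 0.56, 95% interval -1.98 to 0.68, edgeR adjusted p = 0.490), -0.087 without 129 replicate 2 and -1.56 without 129 replicate 1. The 129 libraries of Tet2 had 95% counting intervals of 6.62 to 9.08 and 2.13 to 3.61 CPM, apart beyond counting error.

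Tdg, which encodes the glycosylase that follows TET oxidation, is on chr10:82629828-82650799. It was at 14.8 and 21.4 CPM in B6 and 11.2 and 9.86 CPM in 129. Both 129 libraries were below both B6 libraries. The means were 18.1 ± 4.64 and 10.5 ± 0.917 CPM (SD, n = 2 each), and the log2 fold change was -0.78 (SE 0.37, 95% interval -1.65 to 0.089, edgeR adjusted p = 0.219). The counts of this gene are uncertain, since 33.55% of the 76-base stretches of its transcripts also occur in other genes, mainly the pseudogene Tdg-ps. The shares were 8.86% for Uhrf1, with Gm5648, and at most 0.27% for the 7 genes other than Tdg, Uhrf1 and Dnmt3b. Glt8d2 on the opposite strand overlaps 6.83% of the exon bases of Tdg, and it had 44 to 66 counts in a library.

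Differences between replicates were often as large as those between strains. Between replicates 1 and 2 the log2 ratio exceeded in size the strain difference for 5 of the 10 genes in B6 and for 6 in 129, where the shares over all genes tested were 37.6% and 32.0%. In at least 1 strain it was larger for 7 of the 10, against 48.8% of all genes, and the exceptions were Hells, Dnmt3b and Tdg. In B6 this ratio was 1.12 for Tet3, 1.05 for Tet1 and -1.96 for Dnmt3l, and in 129 it was -0.50, -0.58 and -0.64. Tet2 had the largest ratio in 129, at 1.33, and 0.54 in B6. Replicate 2 was thus the higher one in both strains for Dnmt3l, while for Tet1 and Tet3 the higher replicate was 1 in B6 and 2 in 129. The median size of the ratio was 0.45 in B6 and 0.24 in 129 over the 10 genes, and 0.32 and 0.29 over all genes tested.

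**Figure D3:**
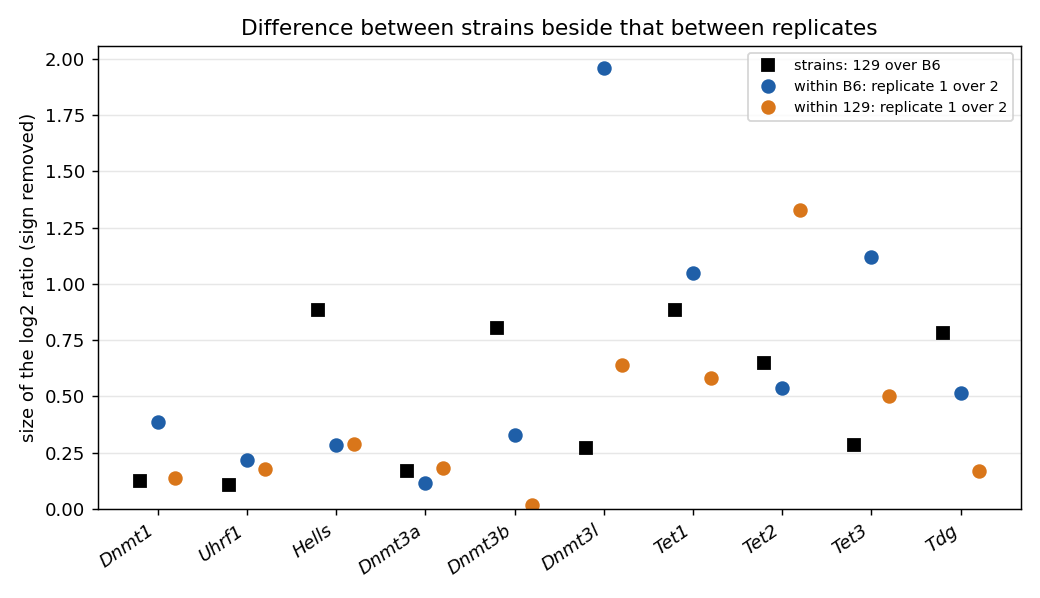
Size of the log2 ratio, sign removed, between strains (black squares), between the B6 replicates (blue) and between the 129 replicates (orange) for each gene. The square is the highest mark for Hells, Dnmt3b and Tdg, and a replicate ratio is the highest for the other 7 genes.

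The genes that work with these enzymes were read from lists by role. The list of 14 de novo partners and guides was broad, and also held Dnmt3c, itself a methyltransferase gene, and Zfp57, which protects imprints. Of the 14 genes 13 were tested, 1 fell by the edgeR test, 12 did not pass and the list median was -0.69. Of these 13, 8 had an unadjusted p under 0.05, where 28.1% of all genes tested did. The one that fell was Kdm1b, an H3K4 demethylase gene that is needed for maternal imprints in oocytes. It was at 202 and 178 CPM in B6 and at 69.9 and 85.4 CPM in 129. The strains were apart, with a log2 fold change of -1.29 (SE 0.20, edgeR adjusted p = 0.0352), and the adjusted p rose to 0.175 without B6 replicate 1, 0.0988 without B6 replicate 2 and 0.202 without 129 replicate 1. DESeq2 called 4 genes of this list lower and 1 higher, where it called 15.3% of all genes, and limma-voom called 1. Besides Kdm1b these were the H3K36 methyltransferase gene Nsd1 (log2 fold change -0.96, SE 0.22), the piRNA pathway genes Piwil2 (-0.86, SE 0.20) and Mael (-0.82, SE 0.24), and Zfp57 (1.16, SE 0.32), which protects imprints. These 4 were named after their values were seen.

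No gene was called by edgeR or limma-voom in the lists of maintenance partners, methyl-CpG readers, excision repair and cofactor supply. The counts that follow stand beside 28.1% of all genes at an unadjusted p under 0.05, 15.3% called by DESeq2 and a median of 0.015 over all genes. Of 10 maintenance partners 2 had an unadjusted p under 0.05 and DESeq2 called 1, with a list median of -0.22. Usp7, the deubiquitinase of DNMT1 and UHRF1, averaged 562 ± 196 CPM for B6 against 462 ± 90.1 CPM for 129 (SD, n = 2 each, here and for the genes that follow), and Cdca7, which recruits HELLS, averaged 377 ± 10.6 against 299.8 ± 57.9 CPM. Cdca7l, the relative of Cdca7 and the gene DESeq2 called, averaged 165 ± 6.77 against 92.5 ± 18.3 CPM (log2 fold change -0.84, SE 0.21, edgeR adjusted p = 0.0673, DESeq2 adjusted p = 0.0208). Its strain difference was near that of Hells in size.

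Of 7 genes listed as methyl-CpG readers, 5 had an unadjusted p under 0.05, against the 28.1% of all genes. DESeq2 called 1 of the 7 higher and 1 lower, and the list median was 0.52. Zbtb33, which encodes Kaiso and was the one called lower, averaged 125 ± 14.7 CPM for B6 against 77.4 ± 5.14 CPM for 129, and Mbd3, a NuRD subunit gene, 69.3 ± 9.77 against 106 ± 10.5 CPM. Zbtb4, called higher by DESeq2, was at 11.3 and 7.92 CPM in B6 and 53.5 and 17.4 CPM in 129, highest in 129 replicate 1. Its log2 fold change of 1.87 was 0.85 without 129 replicate 1 and 2.47 without 129 replicate 2. Of 14 excision repair genes 5 had an unadjusted p under 0.05, DESeq2 called 1 higher, and the median was 0.14. Parp1, which senses DNA breaks, averaged 869 ± 156 CPM for B6 against 842 ± 145 CPM for 129, and the endonuclease gene Apex1 256 ± 29.0 against 168 ± 16.4 CPM. Gadd45g, a stress-induced gene and the one DESeq2 called, averaged 7.63 ± 4.48 against 30.9 ± 17.6 CPM. Its log2 fold change of 2.04 was 1.298 without 129 replicate 1 and 2.75 without B6 replicate 2.

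Of 15 cofactor genes 6 had an unadjusted p under 0.05, DESeq2 called 1 higher and 2 lower, and the median was -0.021. Mat2a, which makes S-adenosylmethionine, averaged 281 ± 37.7 CPM for B6 against 291 ± 0.749 CPM for 129. Of the genes DESeq2 called, Mtr, methionine synthase, averaged 372 ± 142 against 185 ± 10.5 CPM, Ahcy, which clears S-adenosylhomocysteine, 44.3 ± 5.73 against 22.8 ± 2.58 CPM, and Idh2, which makes 2-oxoglutarate in mitochondria, 6.85 ± 4.01 against 23.9 ± 14.1 CPM. The log2 fold change of Idh2, 1.79, was 1.01 without 129 replicate 1 and 2.57 without B6 replicate 1. Ahcy was named after its values were seen.

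**Figure D4:**
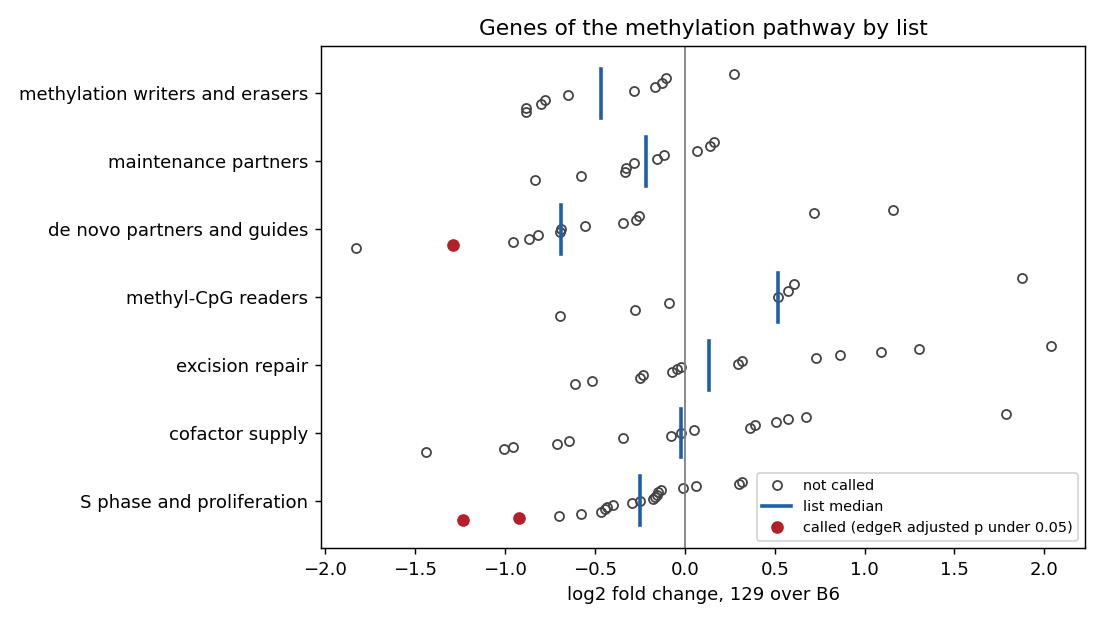
Log2 fold change of 129 over B6 for every tested gene of 7 lists, with open circles for genes not called, red circles for genes called by edgeR and a blue bar for the list median. The called genes are Kdm1b among the de novo partners and Mki67 and Top2a in the S phase and proliferation list, all lower in 129.

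A pair of proliferation genes were lower in 129 by the edgeR test. In the list of 19 S phase and proliferation genes, 2 fell by the edgeR test and 17 did not pass, where 2.86% of all genes were called, 1.02% lower. DESeq2 called 3 lower and 0 higher, where it called 15.3% of all genes, 5.7% lower and 9.63% higher. By limma-voom 1 was called, and the list median was -0.25. In this list 5 genes had an unadjusted p under 0.05, a share near that of all genes. Mki67, a marker of cycling cells, averaged 477 ± 9.38 CPM for B6 against 203 ± 28.9 CPM for 129 (log2 fold change -1.23, SE 0.18, edgeR adjusted p = 0.0340). Top2a, the topoisomerase gene of dividing cells, averaged 796 ± 1.58 against 419 ± 51.7 CPM (-0.93, SE 0.17, edgeR adjusted p = 0.0484). The call of Top2a ended with limma-voom (adjusted p = 0.0537), with either other filter, with the legacy edgeR test (adjusted p = 0.0527) and without any 1 of the 4 libraries, and that of Mki67 ended without either B6 library or 129 replicate 1 (adjusted p = 0.169, 0.112 and 0.1703). Per 100 CPM of Top2a, Hells stood at 89.3 and 73.5 CPM in B6 and 82.6 and 84.7 CPM in 129, which overlapped. Per 100 CPM of the replicative helicase genes Mcm2 to Mcm7, Hells was at 29.9 and 21.2 in B6 and at 16.1 and 16.7 in 129, which did not overlap. The part of proliferation in the level of Hells was not tested.

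Genes whose pattern over the 4 libraries was most like that of a member were sought among the 10262 tested genes that averaged 10 CPM or more. Likeness was the root mean square difference of log2 CPM, each centred on its mean. For Hells they were Ncapg, a condensin subunit gene (0.0167), Stk4 (0.0257) and Haus6, a gene of spindle microtubule assembly (0.0298). For Dnmt3b they were Klf13 (0.0128), Fam241a (0.0201) and Sugt1 (0.0205), and for Uhrf1 they were Uxt (0.0113), Mfn1 (0.0117) and Fbxo7 (0.0144). For Tet1 the nearest were Brwd1 (0.0579), Shcbp1l (0.0602) and Ak4 (0.0638), less close than the nearest of the other 3. Tet1 itself averaged 8.39 CPM in B6 and 4.58 CPM in 129, below the 10 CPM asked of the genes compared. Its distances therefore hold more counting error and are not on a par with those of the other 3. With 4 libraries many genes share a pattern, and none of these 12 genes was called by edgeR.

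The genes lie on 8 chromosomes, whose medians are given as a description, without a test. Over genes averaging 10 CPM or more the median log2 fold change was -0.024 in all, 0.23 on chromosome 6, which holds Tet3, and 0.13 on chromosome 19, which holds Hells. It was -0.17 on chromosome 12 (Dnmt3a), -0.15 on chromosome 3 (Tet2), -0.10 on chromosome 2 (Dnmt3b) and -0.083 on chromosome 9 (Dnmt1). It was -0.0022 on chromosome 17 (Uhrf1) and 0.070 on chromosome 10, with Dnmt3l, Tet1 and Tdg. Hells, Tet1, Tdg and Tet3 had the opposite sign to the median of their chromosomes, and the other 6 genes had the same sign.

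Markers of germ cells and of other cell types differed between libraries as well. The counts of called markers below stand beside the shares over all genes tested. By edgeR 2.86% were called, 1.02% lower and 1.84% higher in 129, and by DESeq2 15.3%, 5.7% lower and 9.63% higher. The summed level of 12 germ cell markers was 3840 and 4036 CPM in B6 and 2907 and 3755 CPM in 129, lower in both 129 libraries. Between 129 replicate 2 and either B6 library, this gap was smaller than that of Uchl1 alone (825 and 756 CPM in B6, 303 and 385 CPM in 129). Both 129 libraries were below both B6 libraries for 7 of the 12 markers and above them for 3, where 29.2% and 31% of all genes were. By the edgeR test 1 of these markers was higher in 129, Etv5 (69.8 ± 15.0 CPM for B6 against 218 ± 22.2 CPM for 129, adjusted p = 0.0318), and 1 was lower, Uchl1 (790.1 ± 48.9 against 344 ± 57.9 CPM, adjusted p = 0.0358). DESeq2 called 2 higher and 2 lower, and the list median was -0.41. The sum of 12 fibroblast markers was 5905 and 3894 CPM in B6 and 7193 and 2760 CPM in 129, higher in replicate 1 of each strain, with Fn1 at 4067 CPM in 129 replicate 1. Single fibroblast markers went opposite ways: edgeR called 1 higher in 129, Pdgfra (log2 fold change 1.88, SE 0.33, adjusted p = 0.0442), and DESeq2 called 4 higher and 4 lower, among them Postn (-2.22, SE 0.51) and Col3a1 (-1.86, SE 0.60).
Sertoli cell markers summed to 20.2 and 24.0 CPM in B6 and 222 and 130.7 CPM in 129. All 9 of the 10 that were tested had a positive log2 fold change, and the median was 1.52. For 7 of them both 129 libraries were above both B6 libraries, where 31% of all genes tested were. By edgeR 1 was called, Clu, which averaged 6.96 CPM for B6 against 142 CPM for 129. Other Sertoli markers were low, with Wt1 averaging 8.44 against 19.4 CPM, Gata4 0.994 against 2.92 CPM, Dhh 0.229 against 1.67 CPM and Amh 0.135 against 0.575 CPM. Rhox8 was at 0 counts in both B6 libraries and averaged 0.814 CPM for 129, and Fshr was at 0 counts in all but B6 replicate 1.
Endothelial markers summed to 14.7 and 20.3 CPM in B6 and 196.5 and 75.6 CPM in 129. Both markers that edgeR called, Cdh5 (1.67 against 57.4 CPM) and Eng (4.87 against 64.3 CPM), made up most of the 129 sums. Kdr averaged 1.77 against 3.83 CPM, Pecam1 5.79 against 7.10 CPM, Tek 3.10 against 3.11 CPM and Tie1 0.280 against 0.310 CPM. All 5 tested endothelial markers had a positive log2 fold change, with a median of 1.11. For 3 of them both 129 libraries were above both B6 libraries, as for 31% of all genes tested. Peritubular muscle markers summed to 37.7 to 104 CPM, and by point estimate 3 were higher and 3 lower in 129, with a median of -0.059. Des was called higher in 129 by edgeR and DESeq2 (2.80 against 25.1 CPM), and Tagln lower by DESeq2 alone (17.5 against 2.95 CPM). Macrophage markers summed to 18.4 to 49.7 CPM and Leydig cell markers to 4.20 to 9.04 CPM, with Lhcgr at 0 counts in all but 129 replicate 2. Per 100 CPM of the germ cell gene Ddx4, Dnmt3b was at 24.75 and 22.4 CPM in B6 and 23.8 and 17.5 CPM in 129. These values overlapped. On the same scale Hells was at 137.5 and 128.6 in B6 and 114.5 and 101.9 in 129, which did not overlap. Both ratios rest on Ddx4 alone, itself at a log2 fold change of -0.57 (SE 0.21). Of the 12 germ cell markers, 8 were lower and 4 higher in 129 by point estimate. Ratios to the other markers were not computed and may separate the strains differently. The part of germ cells and other cell types in the levels of the methylation genes was not tested.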

How the data were processed

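The authors deposited 1 table of unnormalised whole-number counts, with a gene in each row. The build was mm10, per the submitters' processing notes, which also list HTSeq 0.13.5, HISAT2 2.2.1, cutadapt 3.4, bcl2fastq 2.20 and DESeq2 1.30.1. A stranded mRNA kit was used, per the labels' protocols. Single reads of 76 bp were sequenced, per the series' design text. Annotation release and strand setting were not given in the sources used here. The reference was built from C57BL/6, so reads of 129 can be lost at variants.

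Counts were filtered with filterByExpr, scaled by TMM (factors 0.982 to 1.04) and fitted with edgeR 4.0.16 in R 4.3.3 (robust quasi-likelihood, strain as the only term), with Benjamini-Hochberg adjustment over all genes tested. SEs were obtained by dividing the size of the log2 fold change by the square root of F. Sequence sharing was computed over 76-base stretches of GENCODE transcripts. Log2 ratios between replicates used log2(CPM + 0.5). Positions and lengths came from GENCODE M21 (GRCm38), which held 32235 of the 32285 identifiers. Counting intervals are exact Poisson intervals and cover counting error only. Alternatives were other factors, filters and tests (DESeq2 1.42.0, limma-voom in limma 3.58.1), a replicate block, each library left out and, added later, the legacy edgeR test.

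Members and lists were chosen with earlier results of these data known. Named genes were the 10 members; per list the called genes, or else the 2 most abundant, and the largest fold at a mean of 10 CPM or more; and the 3 likest genes of Hells, Uhrf1, Dnmt3b and Tet1. Marker genes, Dnmt3c and the ratios within a library were chosen outside that rule, the ratios after the values were seen.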

Additional observations from a re-analysis of the deposited data

How the results depend on the processing

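The number of genes called, 457 of 16005, was 1021 with upper-quartile factors, 1052 with library totals, 260 without a filter, 150 with at least 10 CPM in 2 libraries, 2455 in DESeq2 and 263 in limma-voom, and leaving out 1 library gave 0 to 827. Of the 10 methylation genes 2 were called in DESeq2 and 0 in the other settings, and 3 were untested under the 10 CPM filter. With a replicate block 844 genes were called, 0 of the 10 among them, and the block changed no call on a gene of the naming rule. Same-numbered libraries are not said to be paired, and their deviations from the strain mean had r = -0.0191 across genes.

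Leaving out 1 library turned the sign of 3 of the 10, with log2 fold changes of -0.31 to 0.036 for Dnmt1, -0.49 to 1.71 for Dnmt3l and -0.78 to 0.38 for Tet3. It also did so for Usp7 (-0.64 to 0.12), Parp1 (-0.23 to 0.12), Mat2a (-0.13 to 0.19), Uxt (-0.22 to 0.0097) and Fbxo7 (-0.19 to 9.6e-04). Parp1 was 0.0027 with library totals. With genes of at least 1 CPM the chromosome medians were -0.063 on 2, -0.10 on 3, -0.032 on 9 and -0.15 on 12. On 6, 10 and 19 they were 0.30, 0.085 and 0.17. The median on 17 turned from -0.0022 to 0.035, so the sign of Uhrf1 was then opposite to that of its chromosome. Per kb of coding sequence, 41 of 45 pairs of the 10 genes kept their order. Coding length came from GENCODE. Dnmt3l, Tet1 and Tet2 had 43 to 286 counts in a library. In B6 the replicates of all 10 genes, these 3 among them, differed by more than counting error.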
